A study of Mus musculus with 25 samples.

Results

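The genes described here are 10 RNA-binding regulators of stored maternal mRNA: Cpeb1, Cpeb4, Dazl, Ybx2, Ybx1, Pabpc1l, Pabpc1, Lsm14b, Zar1 and Zar1l. They were taken by name, not by their values, from 35561 genes listed in at least 1 of 2 deposited expression tables, and all 10 were listed in both tables. The libraries came from C57BL/6 mouse oocytes and embryos and were made with Smart-seq2, which copies full-length polyadenylated RNA from very small inputs. The 6 groups were metaphase II (MII) oocytes matured in culture for 16 h with PBS (n = 4) or with a small molecule labelled VCD (n = 5), 2-cell embryos with PBS (n = 4) or VCD (n = 4), and morulae with PBS (n = 4) or VCD (n = 4). All embryos came from in vitro fertilization, and the agents were present in the culture media. The labels give neither what VCD stands for nor its dose, and neither the number of oocytes or embryos pooled in a library nor whether libraries stem from separate animals. The p-values therefore rest on the spread between libraries, which may be technical.

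A growing mouse oocyte makes and stores mRNA, then stops transcription, and meiotic maturation and the first embryonic division run largely on that store. Cytoplasmic polyadenylation element (CPE) binding proteins and DAZL decide when a stored mRNA gains a longer poly(A) tail and is translated, Y-box proteins package it, and poly(A)-binding proteins link its tail to translation initiation. LSM14, ZAR1 and ZAR1L proteins hold untranslated mRNA in cytoplasmic granules, and most of the store is destroyed as the embryonic genome takes over. Because the cDNA is primed on poly(A), a change in tail length and a change in the amount of an mRNA cannot be told apart in these values. FPKM is a share of a library, so a rise or fall between stages need not be a change in the amount of an mRNA per cell or embryo. Neither the total RNA of a cell nor the number of cells can be read from it.

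The libraries held between 15075836 and 20998265 reads as implied by the steps of the values, and the mean correlation of each library with its own group across genes lay between 0.969 and 0.993. The summed level of 11 oocyte marker genes ran from 13852 to 17272 FPKM in oocytes, from 3539 to 4654 in 2-cell embryos and from 34.9 to 75.7 in morulae, with 10, 10 and 5 or 6 of them averaging at least 1 FPKM. The 9 listed genome activation genes summed to 19.8 to 29.1, 1103 to 1832 and 3.42 to 26.6 FPKM, with 1, 9 and 4 at 1 FPKM. The 9 morula genes summed to 74.2 to 135, 139 to 173 and 1029.5 to 1216 FPKM, with 3 or 5, 6 and 9 at 1 FPKM. The sum of each list was thus highest in its own stage, but not every gene followed. Dppa2 alone averaged 911 FPKM in PBS morulae, and 8 of the 9 morula genes were higher there than in 2-cell PBS embryos. Cdh1, on the morula list, had 67.4 FPKM in MII PBS oocytes and 27.8 in PBS morulae. Npm2, on the oocyte list, had 390 in MII PBS oocytes and 412 in 2-cell PBS embryos. The summed level of 12 cumulus and granulosa genes ranged from 11.0 to 14.7 FPKM in oocytes, from 5.98 to 8.19 in 2-cell embryos and from 0.841 to 3.75 in morulae, with 2, 2 and 1 of the 12 averaging at least 1 FPKM. In MII PBS and VCD oocytes the 2 were Cyp19a1 and Kitl. Cyp19a1, the estrogen-making aromatase, had 8.85 and 8.35 FPKM, and Kitl, the ligand of the oocyte's KIT receptor, had 3.16 and 3.52. Foxl2, a granulosa factor, was not among the genes listed for oocytes and counts as 0 in their sum. The part of these cells in the differences between stages was not tested.

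CPE sites are where Cpeb1 and Cpeb4 proteins bind, and the transcripts of several of these regulators carry the same letters themselves. In the longest annotated 3′ UTR of each gene (GENCODE M21, GRCm38), the letters TTTTAT or TTTTAAT were counted on the transcript strand only. Cpeb4 held 17 matches in 4102 bases, Dazl 6 in 1854, Cpeb1 4 in 1315, Ybx1 2 in 418, Lsm14b 2 in 1181, Pabpc1 1 in 439 and Ybx2 1 in 414. Matches in whole 3′ UTRs were not counted over all genes, so these counts do not set the regulators apart from other genes. No match was found in the annotated 3′ UTRs of Pabpc1l (499 bases), Zar1 (146 bases) and Zar1l (14 bases), which says only that these letters are not in those windows. The sites of the CPE binding genes, of Dazl and of the Y-box pair are shown because those genes encode the proteins that read, activate or package CPE-bearing mRNA. Each is a 30-base stretch of the transcript, 5′ to 3′, around the match nearest to a polyadenylation hexamer (AATAAA or ATTAAA), except for Ybx2, whose 3′ UTR has no hexamer and whose only match is shown. Capitals mark every CPE match and hexamer that lies whole in the stretch. The Cpeb4 stretch holds 2 CPE matches, the first overlapping the hexamer and the other directly after it. Most of these sites are far from the cleavage site. The Cpeb1, first Cpeb4 and Dazl matches start 468, 1864 and 997 bases before the annotated 3′ UTR end. Those of Ybx2 and Ybx1 start 62 and 88 bases before it.
Cpeb1 (chr7:81347475-81347504, minus strand): ttgatagaagtTTTTAATcacagtcacagg
Cpeb4 (chr11:31933761-31933790, plus strand): atataaataaTTTTAATAAATTTTATtttc
Dazl (chr17:50280384-50280413, minus strand): gtATTAAAgagtgctgaaaattTTTTATgt
Ybx2 (chr11:69941532-69941561, plus strand): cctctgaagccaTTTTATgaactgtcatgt
Ybx1 (chr4:119278045-119278074, minus strand): cttcatTTTTAATttgtAATAAAgtttaca
Of the 8 regulators with a 3′ UTR of at least 150 bases, Ybx2 and Ybx1 had a match in the last 150 bases, the part nearest the cleavage site. The share among all 18986 coding genes with a 3′ UTR that long was 23.3%.

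The 10 regulators fell into 4 patterns over the 3 stages. Cpeb1 and Zar1 were highest in MII oocytes and lower at each later stage. Dazl, Pabpc1l and Lsm14b differed little between oocytes and 2-cell embryos and were lowest in morulae. Every 2-cell library of Dazl was still below every oocyte library, with a 1.31-fold step between the PBS means. Cpeb4, Ybx2 and Zar1l peaked in 2-cell embryos, and Ybx1 and Pabpc1, the members used by most cell types, were highest in morulae. The oocyte and embryo tables were made separately, so oocyte levels stand beside embryo levels without a test. VCD and PBS groups followed the same course for all 10 genes.

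**Figure D1:**
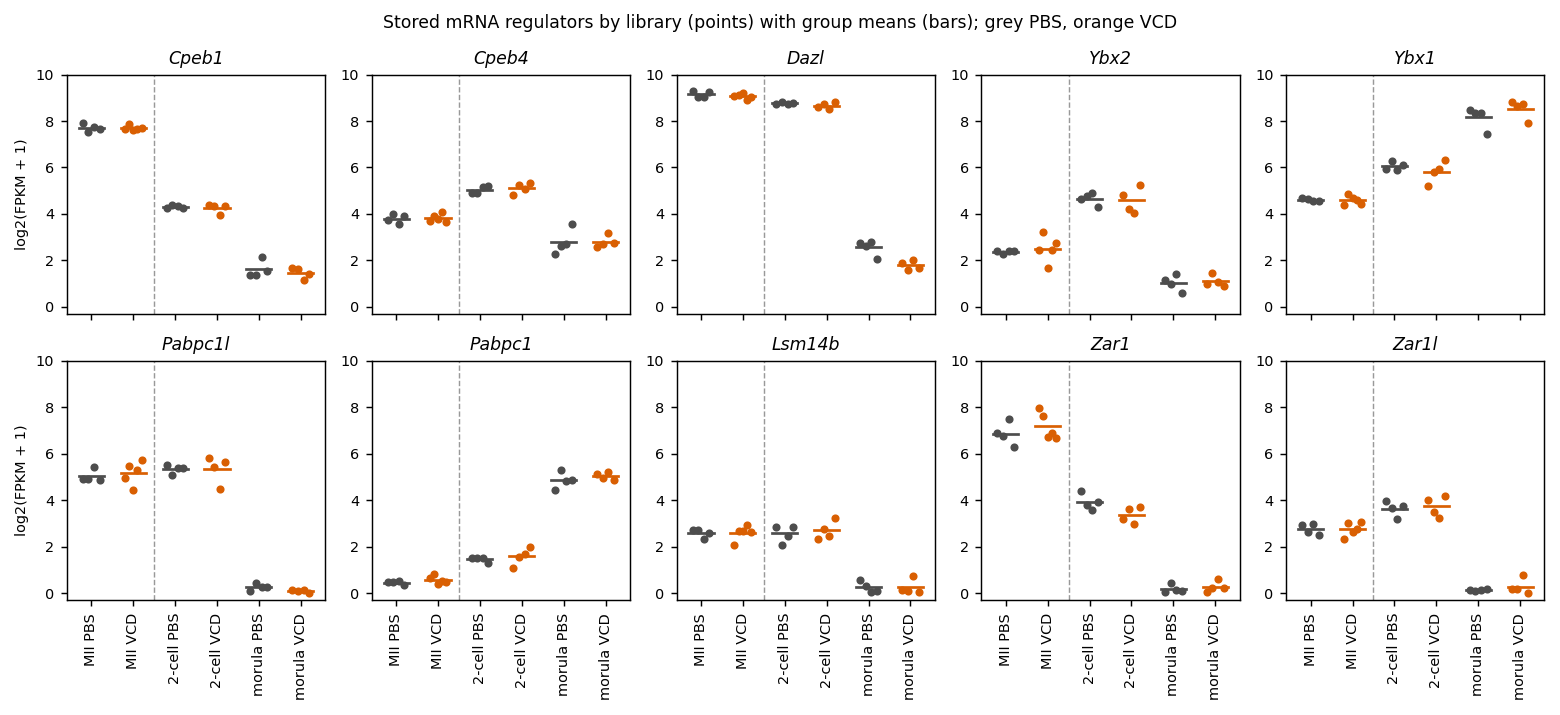
Level of each regulator in each library as log2(FPKM + 1), with points for libraries and bars for the group means; the 6 groups run from MII oocytes to morulae, grey for PBS and orange for VCD, and the dashed line parts the 2 separately made tables. Ybx1 and Pabpc1 rise toward the morula while the other 8 genes are lowest there, and grey and orange points overlap in every stage except for Dazl in morulae.

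Cpeb1 (ENSMUSG00000025586, chr7:81347026-81455465, minus strand) encodes the founding CPE-binding protein, which can hold a stored mRNA silent or promote its polyadenylation. It had 242, 184, 211 and 198 FPKM in the 4 MII PBS libraries and 198, 230, 196, 201 and 204 in the 5 MII VCD libraries. In 2-cell embryos it had 17.8, 19.9, 19.5 and 18.0 FPKM with PBS and 20.0, 19.07, 14.7 and 19.5 with VCD, and in morulae 1.62, 1.56, 3.43 and 1.95 with PBS and 2.21, 2.11, 1.22 and 1.67 with VCD. Every oocyte library was above every embryo library, and every 2-cell library above every morula. The PBS means were 209 ± 24.6 (SD, n = 4), 18.8 ± 1.02 (n = 4) and 2.14 ± 0.873 FPKM (n = 4), an 11.1-fold and then an 8.78-fold step down.

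Cpeb4 (ENSMUSG00000020300, chr11:31872211-31935634, plus strand) encodes the paralog that sustains CPE-dependent translation later in meiosis, and its course differed from that of Cpeb1. In oocytes it had 12.3, 14.8, 10.9 and 13.9 FPKM with PBS and 12.1, 14.1, 12.7, 15.8 and 11.5 with VCD. In 2-cell embryos the values were 28.7, 29.2, 34.5 and 35.5 FPKM with PBS and 26.9, 37.4, 32.7 and 39.2 with VCD, all above every oocyte library. Morulae had 3.92, 5.23, 5.62 and 10.8 FPKM with PBS and 4.91, 5.58, 8.20 and 5.80 with VCD. PBS replicate 4 was the highest morula library but still below every 2-cell library. From 2-cell embryos to morulae the PBS mean went from 32.0 ± 3.52 to 6.40 ± 3.04 FPKM (SD, n = 4 each).

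Dazl (ENSMUSG00000010592, chr17:50279395-50293636, minus strand) encodes a germ cell RNA-binding protein that promotes translation of target mRNAs during maturation, and it was the most abundant of the 10 in oocytes and 2-cell embryos. The 4 MII PBS libraries had 620, 527, 526 and 607 FPKM and the 5 MII VCD libraries 539, 555, 585, 478 and 515. The 2-cell libraries had 427, 451, 426 and 432 FPKM with PBS and 383, 420, 367 and 450 with VCD. Its mean ranked 67 among all genes in MII PBS oocytes and 89 in 2-cell PBS embryos, so the transcript stayed among the most abundant after the first division. In morulae it had 5.76, 5.17, 5.96 and 3.20 FPKM with PBS and 2.76, 2.00, 2.998 and 2.16 with VCD. The PBS mean fell 86.4-fold from 2-cell embryos to morulae, from 434 ± 11.5 to 5.02 ± 1.26 FPKM (SD, n = 4 each).

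Ybx2 (ENSMUSG00000018554, chr11:69935796-69941605, plus strand) encodes the germ cell Y-box protein, known as a packager and stabilizer of stored mRNA. It was low in MII oocytes, with 4.34, 3.81, 4.30 and 4.28 FPKM in PBS libraries and 4.42, 8.26, 2.15, 4.40 and 5.63 in VCD libraries. The 2-cell libraries had 23.7, 26.5, 28.9 and 18.7 FPKM with PBS and 27.3, 17.4, 15.7 and 37.4 with VCD. All 8 were above every oocyte library, and the VCD libraries spread more widely than the PBS libraries. Morulae had 1.24, 0.954, 1.69 and 0.494 FPKM with PBS and 0.952, 1.77, 1.11 and 0.843 with VCD, all below every earlier library.

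Ybx1 (ENSMUSG00000028639, chr4:119277981-119294604, minus strand) encodes the Y-box protein of most cell types. Its oocyte values were 24.5, 23.9, 22.8 and 22.5 FPKM with PBS and 20.0, 28.1, 24.8, 23.3 and 20.9 with VCD. The 2-cell values were 61.1, 77.4, 58.9 and 67.3 FPKM with PBS and 35.5, 54.9, 61.1 and 79.3 with VCD. Morulae had 357, 326, 322 and 175 FPKM with PBS and 445, 404, 422 and 238 with VCD. The 3 stages did not overlap, and replicate 4 was the lowest morula library with either agent. Of the 50-base words in its annotated transcripts, 15.4% also occur in transcripts of 6 other annotated genes, among them the pseudogene Ybx1-ps2. Part of its level may therefore belong to these copies, and the share of words does not give the size of that part.

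Pabpc1l (ENSMUSG00000054582, chr2:164025450-164050538, plus strand) encodes the oocyte poly(A)-binding protein. It had 29.2, 29.7, 42.4 and 28.7 FPKM in MII PBS libraries and 30.4, 43.8, 20.97, 38.5 and 51.9 in MII VCD libraries. In 2-cell embryos it had 44.3, 33.0, 40.5 and 41.4 FPKM with PBS and 55.5, 42.7, 21.2 and 49.4 with VCD, a range that overlaps that of oocytes. Its morula values, 0.0699, 0.362, 0.214 and 0.201 FPKM with PBS and 0.106, 0.0681, 0.0959 and 0 with VCD, came from 4, 17, 11 and 10 reads and from 5, 3, 4 and 0 reads. At that depth the morula level is close to the limit of detection.

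Pabpc1 (ENSMUSG00000022283, chr15:36595661-36609668, minus strand) encodes the poly(A)-binding protein of most cell types and took the opposite course. MII libraries had 0.388, 0.419, 0.425 and 0.286 FPKM with PBS and 0.602, 0.778, 0.333, 0.456 and 0.420 with VCD, and 2-cell libraries 1.84, 1.86, 1.90 and 1.47 with PBS and 1.13, 1.98, 2.25 and 2.96 with VCD. Morulae had 20.6, 38.4, 27.5 and 28.4 FPKM with PBS and 34.1, 30.3, 36.6 and 28.1 with VCD. The 3 stages did not overlap in either agent, and the PBS mean was 16.3-fold higher in morulae than in 2-cell embryos. Of the 50-base words of its transcripts, 9.94% are shared with 866 other annotated genes, so part of its level may belong to those genes. The share of words does not give the size of that part.

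Lsm14b (ENSMUSG00000039108, chr2:180024987-180035465, plus strand), a storage granule protein of oocytes, had means closest to each other in oocytes and 2-cell embryos among the 10, 5.04 ± 0.736 and 5.10 ± 1.48 FPKM with PBS (SD, n = 4 each). It had 5.54, 5.60, 4.01 and 5.01 FPKM in MII PBS libraries and 3.24, 5.51, 5.34, 6.66 and 5.17 in MII VCD libraries, and 6.25, 3.26, 4.56 and 6.34 with PBS and 4.11, 5.81, 4.52 and 8.58 with VCD in 2-cell embryos. In morulae it had 0.478, 0.261, 0.0550 and 0.0757 FPKM with PBS and 0.1001, 0.0856, 0.655 and 0.0440 with VCD. All 8 morulae were below every earlier library, on 2 to 29 reads each.

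Zar1 (ENSMUSG00000063935, chr5:72576806-72581254, minus strand), a zinc finger gene required in the mother for the embryo to pass the first division, had 120, 110, 182 and 77.3 FPKM in MII PBS libraries and 247, 197, 106, 119 and 102 in MII VCD libraries. In 2-cell embryos it had 20.2, 12.8, 11.1 and 14.4 FPKM with PBS and 8.27, 11.5, 6.85 and 12.1 with VCD. The lowest oocyte library was above the highest 2-cell library, and the step between the PBS means was 8.33-fold. Morulae had 0.0275, 0.352, 0.0917 and 0.0790 FPKM with PBS and 0.0334, 0.161, 0.528 and 0.165 with VCD, from 2 to 28 reads. Of its 50-base words, 28.4% also occur in 4 other annotated genes.

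Zar1l (ENSMUSG00000056586, chr5:150507055-150518164, minus strand), its paralog, was lower in oocytes, with 6.70, 5.30, 6.87 and 4.66 FPKM with PBS and 4.07, 7.06, 5.21, 5.76 and 7.50 with VCD. It was higher in 2-cell embryos, at 14.6, 11.8, 8.26 and 12.5 FPKM with PBS and 15.3, 10.2, 8.54 and 17.4 with VCD, all above every oocyte library. Morulae had 0.106, 0.0648, 0.118 and 0.122 FPKM with PBS and 0.129, 0.138, 0.730 and 0 with VCD, from 0 to 10 reads each. Morula VCD replicate 3 was the highest morula library for Lsm14b, Zar1 and Zar1l alike.

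Since FPKM is per length, the regulators can be ordered by level within a group. In MII PBS oocytes the order was Dazl, Cpeb1, Zar1, Pabpc1l, Ybx1, Cpeb4, Zar1l, Lsm14b, Ybx2 and Pabpc1, and among neighbours in that order the ranges over libraries overlapped for Zar1l with Lsm14b and for Lsm14b with Ybx2. In 2-cell PBS embryos the order was Dazl, Ybx1, Pabpc1l, Cpeb4, Ybx2, Cpeb1, Zar1, Zar1l, Lsm14b and Pabpc1, and the neighbours from Pabpc1l down to Zar1l overlapped each with the next. In PBS morulae Ybx1 stood above Pabpc1 and both stood above the rest. Cpeb4, Dazl, Cpeb1 and Ybx2 followed, each overlapping the next, and Lsm14b, Pabpc1l, Zar1 and Zar1l were below 1 FPKM in every morula. The summed level of the 10 genes was 985 ± 68.5 FPKM in MII PBS oocytes, 649 ± 13.3 in 2-cell PBS embryos and 339 ± 79.7 in PBS morulae (SD, n = 4 each), or 0.327%, 0.184% and 0.0921% of all FPKM. Dazl made up most of the sum in the first 2 stages and Ybx1 in the last.

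Morulae were compared with 2-cell embryos of the same agent, which asks how the regulators change once the embryo runs on its own transcripts. Pabpc1l, Lsm14b, Zar1 and Zar1l stayed below 1 FPKM in every morula, so they passed the filter on low values only through their 2-cell levels and had to differ. Of the other 6 regulators, 4 fell and 2 rose with PBS at an adjusted p below 0.05 (limma on log2(FPKM + 1), Benjamini-Hochberg adjustment over 12517 genes), and the same counts were found with VCD, whose embryos share no library with the PBS embryos. Nearly all genes changed between these stages, so passing says little about these regulators. With PBS, 87.7% of the genes tested passed, 42.7% higher and 45% lower, and of the 8353 that reached 1 FPKM in both stages 81.6% passed, 46.8% higher and 34.8% lower. With VCD, 84.8% of 12355 genes passed, 41% higher and 43.9% lower, and of the 8574 that reached 1 FPKM in both stages 78.1% passed, 44.1% higher and 34.1% lower. The median change of the 6 regulators was -2.46 on the log2 scale with PBS and -2.55 with VCD, and that of all genes reaching 1 FPKM in both stages was 0.29 and 0.26. The 2 stages did not overlap for any of the 6 in either agent, as for 83.4% and 79.2% of all genes tested. Those shares include 4164 genes with PBS and 3781 with VCD that stayed below 1 FPKM throughout 1 stage and could not overlap. The share among genes reaching 1 FPKM in both stages was not counted.

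Dazl fell by 6.20 on the log2 scale in PBS embryos (SE 0.16, adjusted p = 1.66e-10, limma) and by 6.87 in VCD embryos (SE 0.16, adjusted p = 2.56e-10). The change of Pabpc1l was -5.07 (SE 0.14) with PBS and -5.26 (SE 0.27) with VCD. The log2 fold changes in PBS and VCD embryos were -3.76 and -3.11 for Zar1, -3.62 and -3.49 for Ybx2, -3.51 and -3.45 for Zar1l, -2.69 and -2.79 for Cpeb1, -2.305 and -2.45 for Lsm14b, and -2.23 and -2.31 for Cpeb4, with SEs between 0.16 and 0.27. Pabpc1 rose by 3.40 (SE 0.18, adjusted p = 1.78e-08, limma) and 3.46 (SE 0.21, adjusted p = 5.33e-08), and Ybx1 rose by 2.10 (SE 0.21, adjusted p = 3.58e-06) and 2.70 (SE 0.27, adjusted p = 2.84e-06). The added 1 FPKM holds back the genes that are near 0 in morulae, and the order turns without it. As a ratio of mean FPKM, the step down with PBS was 188-fold for Pabpc1l, 114-fold for Zar1l and 106-fold for Zar1, against 86.4-fold for Dazl. With limma-voom on recovered reads, the log2 change with PBS was -7.68 for Pabpc1l, -7.14 for Zar1, -6.47 for Zar1l, -4.90 for Lsm14b and -6.47 for Dazl. Of the 6 regulators that reached 1 FPKM in both stages, Dazl, Ybx2, Cpeb1 and Cpeb4 fell and Pabpc1 and Ybx1 rose.

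**Figure D2:**
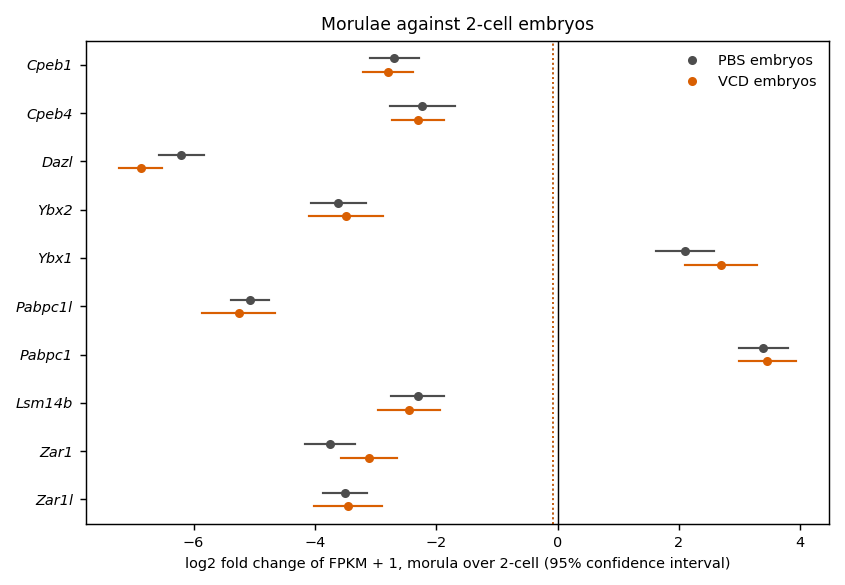
Log2 fold change of FPKM + 1 in morulae over 2-cell embryos for each regulator, with 95% confidence intervals, in PBS embryos (grey) and VCD embryos (orange); dotted lines mark the median of all genes tested. On this scale Dazl lies farthest to the left at -6.20 and -6.87, Pabpc1 and Ybx1 lie to the right of 0, and no interval crosses 0.

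The paralog pairs were also compared within each library as a log2 ratio of FPKM + 1, by two-sided exact permutation tests with Benjamini-Hochberg adjustment over 25 tests. With 4 libraries a side the smallest exact p is 0.0286. It was reached in 7 tests and came to 0.102 after adjustment, so no ratio passed. Pabpc1l exceeded Pabpc1 by 4.58 ± 0.234 on the log2 scale in MII PBS oocytes (SD, n = 4) and by 3.88 ± 0.229 in 2-cell PBS embryos. In PBS morulae the log2 ratio was -4.59 ± 0.214, so the oocyte form held the larger share in every oocyte and 2-cell library and the general form in every morula. The difference between the stages was -8.47 in PBS and -8.72 in VCD embryos (exact p = 0.0286 each). Pabpc1l was near 0 in every morula, on 0 to 17 reads a library, so its part of this difference had to appear. With 1 FPKM added, the morula ratio largely follows Pabpc1, and the size of the difference depends on the pseudocount.

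Ybx1 exceeded Ybx2 in all 25 libraries. The log2 ratio of Ybx2 to Ybx1 was -2.24 ± 0.103 in MII PBS oocytes, -1.41 ± 0.334 in 2-cell PBS embryos and -7.12 ± 0.267 in PBS morulae (SD, n = 4 each). Morulae differed from 2-cell embryos by -5.72 with PBS and by -6.19 with VCD, without overlap (exact p = 0.0286 each). For the CPE-binding pair, the mean of Cpeb1 was 16.1-fold that of Cpeb4 in MII PBS oocytes, while Cpeb4 was 1.70-fold Cpeb1 in 2-cell PBS embryos and 2.99-fold in PBS morulae. The order of this pair was the same in all libraries of a stage, and the step from 2-cell embryos to morulae overlapped (exact p = 0.20 with either agent). Zar1 was 20.7-fold Zar1l in MII PBS oocytes but 1.24-fold in 2-cell PBS embryos. In 2-cell VCD embryos the means stood the other way, Zar1l being 1.33-fold Zar1, and the ratios of the PBS and VCD libraries overlapped.

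Lsm14b was set against Lsm14a, the granule protein of most cell types, which was the higher of the pair in all 25 libraries and had 52.5 ± 1.89 FPKM in MII PBS oocytes, 64.1 ± 3.03 in 2-cell PBS embryos and 5.43 ± 0.892 in PBS morulae (SD, n = 4 each). Lsm14a fell between the embryo stages by 3.35 (SE 0.14, adjusted p = 2.35e-09, limma) with PBS and by 3.43 (SE 0.19, adjusted p = 2.87e-08) with VCD. The log2 ratio of Lsm14b to Lsm14a differed by 1.04 between PBS morulae and 2-cell embryos with 1 FPKM added and by -1.45 with nothing added, so its direction is not settled. Annotated exons of Lsm14a overlap 2310043P16Rik and Gm12764 on the opposite strand.

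**Figure D3:**
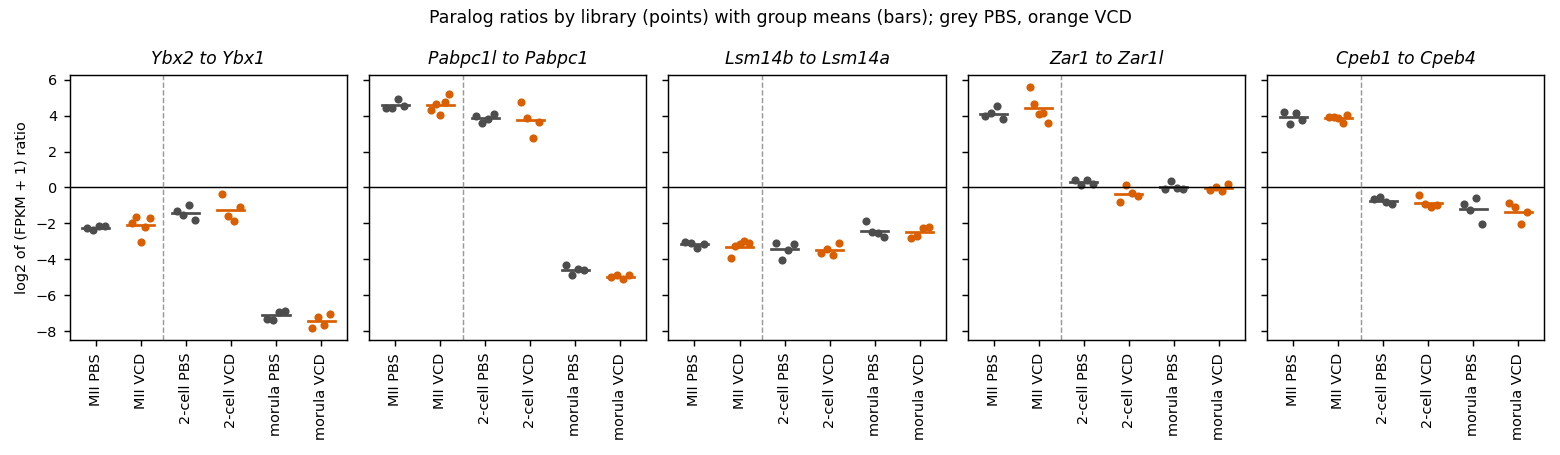
Log2 ratio of FPKM + 1 within each paralog pair, a point for each library and a bar for each group mean, grey for PBS and orange for VCD; the dashed line parts the oocyte and embryo tables. Pabpc1l to Pabpc1 crosses from about 4 to below -4 between 2-cell embryos and morulae, and Cpeb1 to Cpeb4 crosses 0 between the oocyte and the 2-cell groups.

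The comparison of VCD with PBS asked whether the small molecule changed these regulators. At the threshold, 0 of 9 tested regulators passed in MII oocytes, 0 of 10 in 2-cell embryos and 0 of 6 in morulae (limma, Benjamini-Hochberg adjusted p of at least 0.999 for each), and limma-voom on recovered reads also called 0. Few genes of any kind passed: 0.0115% of 8715 in oocytes, 0% of 11369 in 2-cell embryos and 0.01% of 9959 in morulae. At an unadjusted p below 0.05 there were 0 regulators in oocytes, 1 in 2-cell embryos and 1 in morulae, beside 2.81%, 3.44% and 3.12% of all genes. Groups without overlap were found for 0 regulators in oocytes, 0 in 2-cell embryos and 1 in morulae, beside 1.04%, 2.16% and 2.04% of all genes. Pabpc1 was too low to be tested in oocytes, as were Pabpc1l, Lsm14b, Zar1 and Zar1l in morulae.

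In MII oocytes the differences ran from -0.09 for Dazl to 0.31 for Zar1 on the log2 scale, and the 95% confidence intervals of all 9 tested genes lay within a 2-fold change either way. Dazl averaged 570 ± 50.5 FPKM with PBS (SD, n = 4) and 534 ± 40.3 with VCD (n = 5). Cpeb1, at 209 ± 24.6 and 206 ± 13.8 FPKM, had an interval from -0.20 to 0.18. The widest interval was that of Zar1, from -0.34 to 0.95, where the 2 highest VCD libraries lay above all PBS libraries and the other 3 among them.

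In 2-cell embryos the difference of largest size was that of Zar1, with 14.6 ± 3.93 FPKM with PBS and 9.67 ± 2.52 with VCD (SD, n = 4 each). That is -0.55 on the log2 scale (SE 0.21, 95% interval -1.02 to -0.08, adjusted p = 0.999, limma), and the groups overlapped. Zar1 had an unadjusted p of 0.0263, which put it at rank 194 of 11369 genes. The ratio of Zar1 to Zar1l was lower by 0.64 with VCD (exact permutation p = 0.0571, adjusted p = 0.179), and Zar1l itself, at 11.8 ± 2.63 and 12.9 ± 4.18 FPKM, did not pass either. The other 9 regulators lay between -0.24 for Ybx1 and 0.14 for Lsm14b, with intervals within a 2-fold change.

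Among the 6 regulators tested in morulae, the difference of largest size was that of Dazl. Its 4 VCD libraries, from 2.00 to 2.998 FPKM, were all below its 4 PBS libraries, from 3.20 to 5.96, as for 0.853% of all genes tested. The difference was -0.77 on the log2 scale (SE 0.22, 95% interval -1.27 to -0.28), at rank 40 of 9959 genes by p, and it did not pass (adjusted p = 0.99997, limma). When all 4 embryo groups shared 1 fit, the adjusted p was 0.121, the lowest among its alternatives, which ran up to 1. The summed level of the 11 oocyte marker genes was 43.5 to 75.7 FPKM in PBS morulae and 34.9 to 57.1 in VCD morulae. In these groups 5 and 6 of them averaged at least 1 FPKM. The largest part was Zp3, at 31.1 and 26.4 FPKM, which had 29.2 in 2-cell PBS embryos, so the sum is a poor gauge of leftover oocyte RNA. Of the 5 marker genes tested in morulae, 2 were higher with VCD, and 0 passed in either direction. The part of leftover oocyte RNA in the Dazl difference was not tested.

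The differences of the other 5 regulators tested in morulae ran from -0.14 for Cpeb1 to 0.36 for Ybx1, whose means were 295 ± 81.5 and 377 ± 94.4 FPKM (SD, n = 4 each) with overlapping libraries. Pabpc1l was too low for the test, and its ratio to Pabpc1 was lower by 0.37 with VCD without overlap (exact permutation p = 0.0286, adjusted p = 0.102), on 0 to 17 reads of Pabpc1l per library. An interaction term compared the VCD effect between morulae and 2-cell embryos, and 0 of 10 regulators passed, as did 0% of 14144 genes. At an unadjusted p below 0.05 there were 2 of the 10, beside 3.55% of all genes. The interaction was -0.67 for Dazl (SE 0.22) and 0.65 for Zar1 (SE 0.28), both with an adjusted p of 0.999 (limma). Pabpc1l, Lsm14b, Zar1 and Zar1l stayed below 1 FPKM in every morula and entered this test only through their 2-cell levels. For these genes the test says little about morulae, and the Zar1 value largely restates its 2-cell difference of -0.55 with the sign turned.

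**Figure D4:**
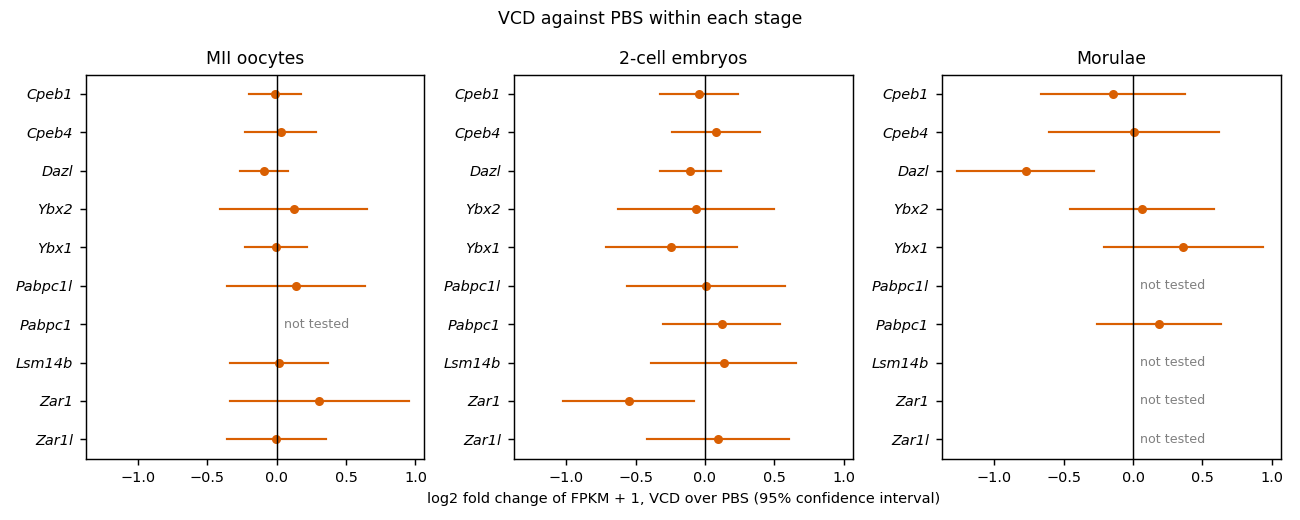
Log2 fold change of FPKM + 1 with VCD over PBS for each regulator in MII oocytes, 2-cell embryos and morulae, with 95% confidence intervals; regulators too low in a stage are marked as not tested. All intervals cross 0 except those of Zar1 in 2-cell embryos (-1.02 to -0.08) and Dazl in morulae (-1.27 to -0.28), neither of which passed after adjustment.

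The other genes of the pathway were taken from 4 lists. Of all genes tested, 42.7% were called higher and 45% lower with PBS, and 41% and 43.9% with VCD. As above, a gene with every library of 1 stage below 1 FPKM passed the filter through the other stage alone and had to differ.

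Of 13 tested genes for cytoplasmic polyadenylation and CPE binding, 5 were called higher and 4 lower in morulae with PBS, and 5 higher and 3 lower with VCD, where 87.7% and 84.8% of all genes were called either way. With PBS 4 of these calls were set by the filter, and of the other 9 genes 2 rose and 3 fell. With VCD 3 were set by the filter, and of the other 10 genes 3 rose and 2 fell. Of all genes reaching 1 FPKM in both stages, 46.8% rose and 34.8% fell with PBS, and 44.1% and 34.1% with VCD. Cpsf3, the nuclease that cleaves nascent mRNA ahead of polyadenylation, differed by 3.18 (SE 0.15), Cpeb2, a paralog of Cpeb4, by 2.99 (SE 0.13) and Msi2, a Musashi RNA-binding protein, by -2.40 (SE 0.13), all 3 being below 1 FPKM throughout 1 stage with PBS. Cpeb2 averaged 0.540 ± 0.0698 FPKM in 2-cell PBS embryos and 11.3 ± 1.48 in PBS morulae (SD, n = 4 each). The PBS morulae of Cpeb2, from 9.41 to 13.0 FPKM, overlapped those of Cpeb4, from 3.92 to 10.8, and lay above those of Cpeb1. Wdr33, which recognizes the polyadenylation hexamer and was above 1 FPKM in all libraries, fell by 1.06 (SE 0.12).

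Of 19 genes of storage granules and cap repression, 6 were called higher and 10 lower with PBS, and 4 higher and 11 lower with VCD, beside the same 87.7% and 84.8% of all genes. Of the 16 that reached 1 FPKM in both stages with PBS, 5 rose and 8 fell, with a median of -0.31 against 0.29 for all such genes. Among all such genes 46.8% rose and 34.8% fell. With VCD 15 reached 1 FPKM in both stages, of which 3 rose and 8 fell, beside 44.1% and 34.1% of all such genes. Elavl2, an RNA-binding protein of oocytes and neurons, fell by 4.40 (SE 0.15) in PBS embryos. Eif4e2, a cap-binding repressor of most cell types, rose by 2.996 (SE 0.16), and Igf2bp1, which shields bound mRNA from decay, rose by 2.695 (SE 0.23). Eif4e1b, the oocyte form of the cap-binding protein eIF4E, differed by -4.33 (SE 0.14) and was below 1 FPKM in every morula.

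Of 15 tested partners of poly(A)-binding proteins, 7 were called higher and 5 lower with PBS, and 7 higher and 3 lower with VCD, beside 87.7% and 84.8% of all genes called either way. Of the 13 that reached 1 FPKM in both stages, 6 rose and 4 fell with PBS, and 6 rose and 2 fell with VCD. Among all such genes 46.8% rose and 34.8% fell with PBS, and 44.1% rose and 34.1% fell with VCD. Larp4, which binds and protects poly(A) tails, rose by 2.98 (SE 0.16). Paip1, a stimulator of translation that binds the poly(A)-binding protein, fell by 5.72 (SE 0.15), from 396 ± 41.1 to 6.60 ± 1.21 FPKM. The other 2 passed through 1 stage alone: Larp1, a repressor of ribosomal protein mRNAs, differed by 4.20 (SE 0.17), and Pabpn1l, an oocyte paralog of the nuclear poly(A)-binding protein, by -2.08 (SE 0.11).

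Of 14 transcripts listed as translated through CPE or DAZL sites, 11 were called lower and 1 higher with PBS, and 10 lower and 2 higher of 13 tested with VCD, where 45% and 43.9% of all genes were called lower. Of the 12 that reached 1 FPKM in both stages with PBS, 9 fell and 1 rose, where 34.8% and 46.8% of all such genes did. Their median was -2.25, against 0.29 for all such genes. With VCD 11 reached 1 FPKM in both stages, of which 8 fell and 2 rose, where 34.1% and 44.1% of all such genes did. Btg4, which brings the deadenylase to maternal mRNA, fell by 9.52 (SE 0.11), from 5121 ± 398 FPKM in 2-cell PBS embryos to 5.97 ± 0.334 in PBS morulae (SD, n = 4 each). Wee2, an oocyte kinase that holds meiotic arrest, fell by 8.25 (SE 0.24) with PBS. Bub1b, a spindle checkpoint kinase, rose by 0.57 (SE 0.155), and Tex19.1 rose in VCD embryos by 0.59 (SE 0.23). With VCD against PBS, 0 genes of these 4 lists passed in any stage, and the members of smallest unadjusted p were Fip1l1 in oocytes (0.29, SE 0.12), Eif4g2 in 2-cell embryos (0.27, SE 0.11) and Eif4g1 in morulae (0.46, SE 0.18).

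**Figure D5:**
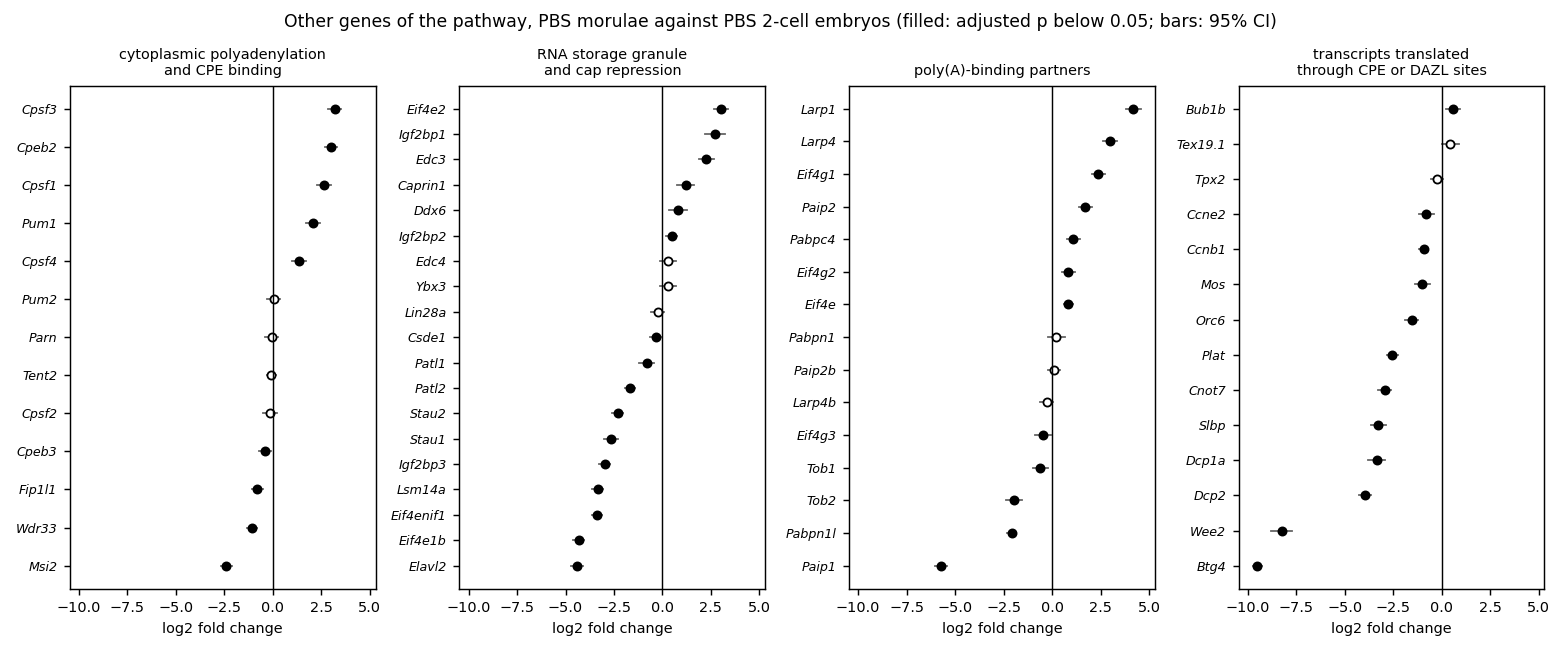
Log2 fold change in PBS morulae over PBS 2-cell embryos for the tested genes of the 4 lists, 1 gene a line, with 95% confidence intervals; filled points have an adjusted p below 0.05. The target list lies mostly to the left, down to Btg4 at -9.52, while the partners of poly(A)-binding proteins run from Paip1 at -5.72 to Larp1 at 4.20.

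For each regulator the genes of most similar course were taken by Pearson's r of log2(FPKM + 1) over the 25 libraries, among 8582 genes of both tables with a group mean of at least 5 FPKM. These are descriptions: the libraries fall into 3 stages and 2 separately made tables, which set most of each correlation. Pabpc1l was most like Nobox, an oocyte transcription factor (r = 0.995), and Slc25a48 (r = 0.995), and 1228 genes reached an r of 0.95 with it. Dazl was most like Mindy3 (r = 0.997) and Kpna7, an oocyte importin (r = 0.996). Cpeb1 was most like Pde3a, the phosphodiesterase that controls meiotic arrest, and D030018L15Rik (r = 0.996 each), the latter also among the nearest of Zar1 (r = 0.989) behind Gm19680 (r = 0.991).

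Of the genes that peaked in 2-cell embryos, Cpeb4 was nearest to Mapk8 and Srbd1 (r = 0.979 each), Ybx2 to Gm32983 (r = 0.981) and Fars2 (r = 0.979), and Zar1l to Tmem255b (r = 0.994) and Tdrd1, a germline piRNA pathway gene (r = 0.991). Only 134 genes reached 0.95 with Cpeb4 and 216 with Ybx2, fewer than for the other 8. Lsm14b was nearest to Tpmt (r = 0.982) and Tiam1 (r = 0.980). Ybx1 was nearest to the splicing factor Srsf2 and to Bag1 (r = 0.991 each), and Pabpc1 to Dirc2 (r = 0.995) and Strn3 (r = 0.994), with 1712 genes at 0.95 or more. Among the regulators themselves, Cpeb1 and Zar1 had an r of 0.986, Dazl and Pabpc1l of 0.984, Ybx1 and Pabpc1 of 0.973, and Cpeb4 and Ybx2 of 0.923, while Cpeb1 and Ybx1 had an r of -0.95.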

How the data were processed

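The authors deposited FPKM (fragments scaled by gene length and by library total) in 1 table for oocytes and 1 for embryos, with mouse Ensembl identifiers. The aligners, TopHat2 2.0.12 and Bowtie2 2.2.3, are taken from the submitters' processing notes, which name a chicken build that cannot hold these identifiers. The counting tool is not given in the sources used here. Reads were recovered only for depth and an alternative: FPKM times exon length fell on whole reads, within 0.01, for 90.6% to 93.4% of values under 200 reads. Without molecular identifiers, they cover counting error only.

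Genes reaching 1 FPKM in 4 or more libraries of a comparison were tested with limma 3.58.1 in R 4.3.3, with a variance trend, on log2(FPKM + 1), a scale that understates changes of low genes. Benjamini-Hochberg adjustment ran over all genes tested, with a threshold of 0.05. The procedure was first run on simulated data, in which genes varied independently and only genes at 5 FPKM or more were changed. That run does not cover genes near 0 or genes that vary together. From each list, the 2 genes of largest change in each direction that passed were named, or the 1 of smallest p. Alternatives were another pseudocount, filters, scalings, library weights, a count model, all embryo groups in 1 fit, a replicate block and leaving out each library. The regulators, lists and tests were chosen with earlier results of these data known.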

Additional observations from a re-analysis of the deposited data

Results flagged for a closer look

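Among 60 combinations of a regulator and a group, 5 had a library far from the others of its group by Dixon's criterion. Chance marks about 1 in 20 such groups, or 3 of 60. Cpeb1 was highest in MII VCD replicate 2, at 230.1 FPKM against 196.3 to 204.0 in the others. Ybx2 was lowest in MII PBS replicate 2, at 3.806 FPKM against 4.28 to 4.342. Pabpc1l was highest in MII PBS replicate 3, at 42.42 FPKM against 28.72 to 29.71. Pabpc1 was lowest in 2-cell PBS replicate 4, at 1.47 FPKM against 1.843 to 1.902. Lsm14b was highest in morula VCD replicate 3, at 0.6552 FPKM against 0.04396 to 0.1001, where Zar1 and Zar1l were also highest.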

How the results depend on the processing

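For the 10 regulators in the 2 comparisons of morulae with 2-cell embryos, all 446 values under the alternatives kept their direction and passed, with adjusted p from 4.03e-16 to 6.43e-05 (limma), though the 4 genes near 0 in morulae had to differ. A filter at 5 FPKM left 9 regulators tested and called in each. Of all genes, 3449 were then called higher and 3233 lower of 7354 with PBS, and 3338 and 3106 of 7259 with VCD. When 1 library was left out, between 6 and 10 passed with either agent: the minimum of 4 libraries then removes the 4 genes below 1 FPKM in all morulae, and on the genes of the full set, an alternative added after seeing the data, 10 passed. Median-ratio scaling moved the median of all genes by -0.28 with PBS and by -0.25 with VCD, and 10 regulators still passed, the same 4 having to differ. Under that scaling 4851 genes were called higher and 6116 lower of 12517 with PBS, and 4661 and 5824 of 12355 with VCD.

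No regulator passed in the comparisons of VCD with PBS, or in the interaction, under any alternative run. The deviations of same-numbered libraries from their group means had an r from -0.33 to 0.38, and 3 of 12 pairs correlated best with their own number, so the number alone does not pair them. With the replicate block 0 regulators were called in each of these 4 comparisons. The block could not be fitted between stages, whose labels number libraries differently. Of 625 alternative values of the 25 differences between agents, 84 changed sign, all of small differences; the cause was not tested. In oocytes, array weights gave Cpeb1 0.000979, Ybx1 0.014 and Zar1l 0.034, the block gave Ybx1 0.029, and median-ratio scaling gave Lsm14b -6.25e-05. In 2-cell embryos, Pabpc1l had -0.016 under median-ratio scaling, -0.000954 with array weights and -0.00119 with limma-voom on recovered reads, and array weights gave Zar1l -0.078. In morulae, Cpeb4 had -0.00227 under median-ratio scaling and Ybx2 -0.066 with array weights.

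Leaving out 1 library, the oocyte differences ran from -0.071 to 0.059 for Cpeb1, -0.047 to 0.088 for Cpeb4, -0.058 to 0.33 for Ybx2, -0.075 to 0.044 for Ybx1, -0.070 to 0.15 for Lsm14b and -0.093 to 0.10 for Zar1l. In 2-cell embryos they ran from -0.086 to 0.055 for Cpeb1, -0.29 to 0.11 for Ybx2, -0.15 to 0.30 for Pabpc1l, -0.012 to 0.29 for Pabpc1, -0.048 to 0.26 for Lsm14b and -0.060 to 0.26 for Zar1l. In morulae they ran from -0.23 to 0.034 for Cpeb1, -0.17 to 0.26 for Cpeb4 and -0.086 to 0.196 for Ybx2. The ratio of Lsm14b to Lsm14a between the embryo stages, positive with 1 FPKM added, was -0.64 with PBS and -0.85 with VCD at a pseudocount of 0.1, and -1.45 and -1.81 with none, since Lsm14b is near 0 in morulae. Depth limits what can be said of Pabpc1l, Lsm14b, Zar1 and Zar1l in morulae, which had 0 to 29 reads a library.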
